A study of Homo sapiens with 33 samples.

Results

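The cells compared here are HEK293T cells carrying SpACE with the HEKsite2 guide and HEK293T cells carrying nCas9 with the same guide, and every gene in the count table was considered. The 6 libraries were picked by construct and guide in their labels, 3 for each construct, out of 33 in the series. HEK293T is an established line of human embryonic kidney origin that carries adenovirus and SV40 genes. SpACE joins an adenosine deaminase and a cytidine deaminase to a Cas9 nickase, so that adenines and cytosines at 1 DNA site can be edited together. nCas9 is the nickase with no deaminase and served as a negative control, as did GFP. Each construct was delivered on a plasmid together with a guide plasmid, and GFP was translated from the same transcript as the construct. GFP-positive cells were sorted 36 to 40 h after transfection and total RNA was sequenced. The SpACE columns name UGI, an inhibitor of uracil DNA glycosylase, which the samples' labels leave out. The other groups used are SpACE and nCas9 with the RNF2 guide, Target-AID (a cytosine editor), ABEmax and miniABEmax-V82G (adenine editors) with the HEKsite2 guide, and GFP, each with 3 libraries. The labels do not say whether replicates were separate cultures, so p-values measure only the spread between these libraries.

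Cells hold unfolded proteins in check with chaperones. HSP70 proteins bind exposed stretches of a client, J-domain proteins deliver clients to HSP70, BAG proteins release them, and HSP90 with its co-chaperones completes the folding of many signalling proteins. Heat shock factor HSF1 drives these genes through repeats of nGAAn in their promoters. A second stress programme starts with phosphorylation of eIF2alpha, which favours translation of the transcription factor ATF4, and ATF4 raises genes for amino acid synthesis, amino acid import and tRNA charging.

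Total counts were 8690271, 9248089 and 8863422 in the SpACE libraries, against 8524841, 7214900 and 8438389 in the nCas9 libraries. Of 26475 genes in the table, 14613 had enough counts to be tested. Among markers of the cell line, VIM and KRT18 did not pass the test, KRT8 and NEFL were lower in SpACE with log2 fold changes of -0.42 and -0.30, and PAX2 had 7 counts over the SpACE libraries and 3 over the nCas9 libraries, too few for a test. Levels in CPM are counts scaled by library size. The 3 tested of 14 liver markers summed to 0.54 to 1.58 CPM in the SpACE libraries, against 0.49 to 1.26 CPM in the nCas9 libraries. The 3 tested of 6 blood cell markers summed to 3.16 to 4.83 CPM, against 4.35 to 6.17 CPM. Of these 3, 1 passed the test, lower in SpACE with a log2 fold change of -1.81. The 5 tested of 10 mesenchymal markers summed to 16.22 to 21.35 CPM, against 14.55 to 20.7 CPM, and 1 passed the test, lower in SpACE. The 1 tested of 8 erythroid markers had 5.64 to 7.46 CPM, against 5.82 to 10 CPM, and did not pass. PTPRC and CD3E had 0 counts in all 6 libraries. In bulk RNA fewer cells of a type and less RNA per cell cannot be told apart, and this holds for each gene below.

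The test called 3063 genes (21% of those tested), with 1568 higher in SpACE (10.7%) and 1495 lower (10.2%). Differences were mostly small, with a median size of 0.33 on the log2 scale among called genes. At 1.5-fold or more there were 233 genes higher and 297 lower, and at 8-fold or more there were 3 higher and 0 lower. On the CPM scale the rises with the most reads were those of chaperones. HSP90AA1, the stress-inducible HSP90, averaged 3032 ± 61.4 CPM in SpACE and 1609 ± 142 CPM in nCas9 (SD, n = 3 each). HSPD1, the mitochondrial HSP60, averaged 2008 ± 13.4 CPM in SpACE and 1348 ± 129.7 CPM in nCas9 (SD, n = 3 each). The falls with the most reads included CSH2, ACTG1 and the histone gene HIST1H4C. The 15 largest rises and the 15 largest falls described below were picked among called genes whose SpACE libraries all lay on one side of all nCas9 libraries, so the separation of their groups comes from that choice.

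**Figure D1:**
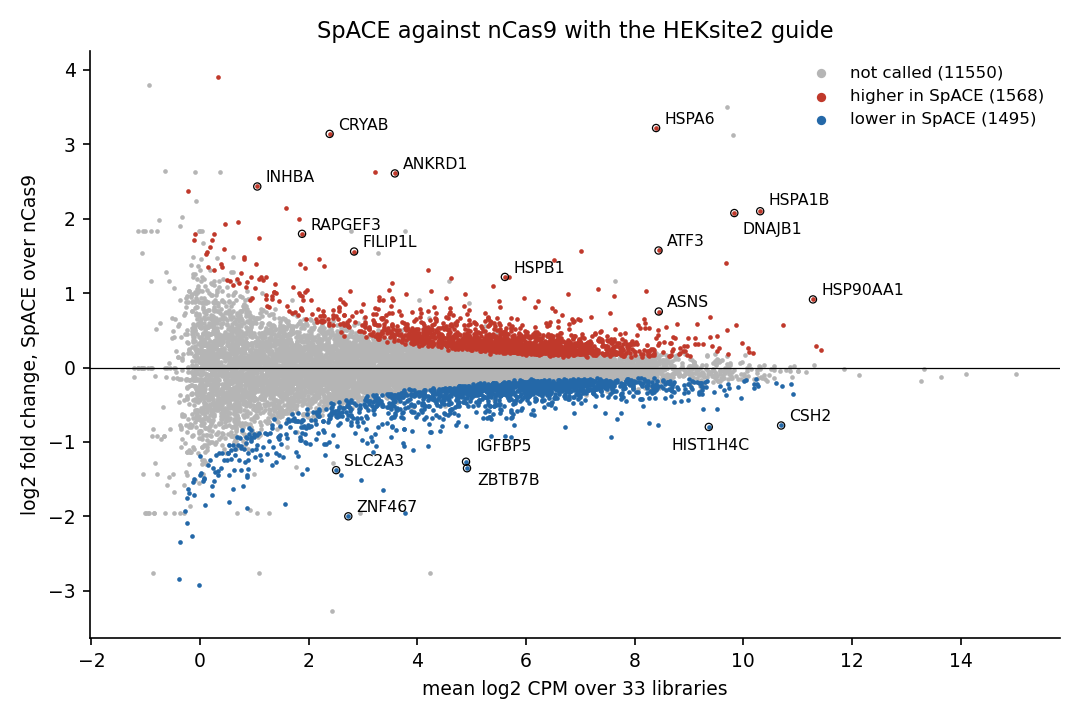
Log2 fold change of SpACE over nCas9 with the HEKsite2 guide (vertical) against mean log2 CPM over the 33 libraries of the series (horizontal), 1 point per gene tested. Red points (1568) were called higher in SpACE, blue points (1495) lower and grey points were not called. Among called genes with many reads, HSPA6, HSPA1B and DNAJB1 lie highest. The falls below -1 are in genes of lower level, and HIST1H4C and CSH2 are lower with many reads.

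Chaperones of the HSP70 and HSP110 family were higher in SpACE, with 9 of 15 members called higher and 0 lower, against 10.7% and 10.2% of all genes tested. The median of the 15 log2 fold changes was 0.31, against -0.0036 over all genes tested. HSPA6, an inducible HSP70 with almost no expression in unstressed cells, had 205, 133 and 119 CPM in SpACE, against 16.1, 15.1 and 17.6 CPM in nCas9. The first SpACE library was the highest, and the nCas9 libraries were close together (3.22, SE 0.139; adjusted p = 4.65e-21). HSPA1B, the main inducible HSP70, had 1233, 1179.7 and 1212 CPM in SpACE, against 287, 282 and 277 CPM in nCas9 (4.28-fold). Each group was tight. HSPA1A, its near-identical neighbour, held 2.19, 1.95 and 1.02 CPM in SpACE, against 0.606, 0.982 and 0.471 CPM in nCas9 (1.34; adjusted p = 0.0184), and reads of this pair, like those of HSPA6 and HSPA7, can be assigned to either copy. Its adjusted p was 0.0678 to 0.0938 without the first or the second SpACE library and without the first or the third nCas9 library. HSPA4L, an HSP110-type exchange factor, rose by 0.96 (adjusted p = 2.64e-12), and HSPA8, the constitutive HSP70, by 0.23 (adjusted p = 0.0101, or 0.0812 without the third nCas9 library). HSPA4L and HSPA8 were picked after their values were seen. HSPA2, HSPA1L, HSPA12A, HSPA12B, HSPA13 and HSPA14 did not pass the test.

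J-domain proteins moved more selectively. Of 38 tested members 14 were higher (36.8%) and 3 lower (7.89%), against 10.7% and 10.2% of all genes tested, with a median of 0.10. DNAJB1, the partner of HSP70 in disaggregation, had 910.1, 808 and 777 CPM in SpACE, against 197, 189.9 and 205 CPM in nCas9 (2.07, SE 0.0813). DNAJB4 had 78.3, 74.4 and 74.6 CPM in SpACE, against 40.7, 38.1 and 39.6 CPM in nCas9 (0.94; adjusted p = 2.42e-11). For DNAJB4 the SpACE libraries were all above the nCas9 libraries. The annotated span of DNAJB4 overlaps GIPC2, a gene of a PDZ-domain protein on the same strand of chromosome 1, which was also higher (1.73; adjusted p = 1.93e-04), so reads of these neighbours can be assigned to either. DNAJA1, an abundant cytosolic J-domain protein, had 672, 624 and 678 CPM in SpACE, against 502, 416 and 398 CPM in nCas9, a smaller rise (0.59; adjusted p = 8.39e-09). DNAJC22, a membrane J-domain protein, fell by 1.45 on the log2 scale, with 3.8, 3.36 and 3.5 CPM in SpACE, against 9.94, 8.27 and 10.7 CPM in nCas9. Without the second nCas9 library 9 J-domain genes were called higher.

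The list of small heat shock and BAG genes also holds SERPINH1, which is neither. Of its 11 tested members 6 were higher (54.5%) and 0 lower, against 10.7% and 10.2% of all genes tested, with a median of 0.615. HSPB1 (HSP27), which holds unfolded proteins in solution, had 69.1, 66.9 and 66.1 CPM in SpACE, against 30, 27.2 and 29.6 CPM in nCas9 (1.22; adjusted p = 5.89e-11). HSPB8, which works with BAG3 in selective autophagy, was far less abundant at 4.26, 6.08 and 4.86 CPM in SpACE, against 2.06, 1.82 and 1.65 CPM in nCas9 (1.45; adjusted p = 1.79e-05). BAG3 itself had 153, 136 and 135 CPM in SpACE, against 47.4, 46.3 and 49.1 CPM in nCas9 (2.97-fold). The groups of HSPB1 were apart. CRYAB, another small heat shock gene, had 4.72, 5.64 and 6.55 CPM in SpACE, against 0.606, 0.561 and 0.706 CPM in nCas9. SERPINH1 (HSP47), the collagen chaperone of the endoplasmic reticulum, had 186, 176 and 181 CPM in SpACE, against 84.5, 87.4 and 90.3 CPM in nCas9 (1.05; adjusted p = 4.16e-16). BAG1, BAG4, BAG5 and BAG6 did not pass the test.

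For HSP90 and its co-chaperones 10 of 20 members were higher (50%) and 3 lower (15%), against 10.7% and 10.2% of all genes tested. STIP1 (HOP), which passes clients between HSP70 and HSP90, had 805, 748 and 739.6 CPM in SpACE, against 511, 472 and 455 CPM in nCas9 (0.67; adjusted p = 3.73e-11). SUGT1, an HSP90 adaptor, had 121, 116 and 122 CPM in SpACE, against 75.1, 75 and 62.5 CPM in nCas9 (0.76; adjusted p = 3.09e-11). CHORDC1, an HSP90-binding protein, had 370.0, 358 and 361 CPM in SpACE, against 189, 166 and 177 CPM in nCas9 (1.03). PPID (cyclophilin 40) rose by 0.55 (adjusted p = 1.07e-07). The 3 lower members were CDC37, which brings kinases to HSP90, HSBP1, which binds heat shock factor, and HSF1 itself, with log2 fold changes of -0.29, -0.28 and -0.23. These 3 were named after their values were seen, and HSF1 lost its call without the third SpACE, the first nCas9 or the second nCas9 library (adjusted p 0.0633 to 0.119). With library differences by GC content taken out, the log2 fold change of HSF1 was -0.12 (adjusted p = 0.217). Of 11 chaperonin genes 5 were higher (45.5%) and 1 lower (9.09%, near the share over all genes). TCP1, a subunit of the cytosolic chaperonin, had 1135, 1074 and 1094 CPM in SpACE, against 803, 725 and 703 CPM in nCas9 (0.57; adjusted p = 1.73e-09), and HSPD1 rose by 0.57 (adjusted p = 3.08e-09). CCT6B, a minor chaperonin subunit with few reads, had a log2 fold change of -0.84 (adjusted p = 0.0394) and lost its call without any of 5 of the 6 libraries, the second nCas9 library being the exception (adjusted p 0.0612 to 0.254), and with DESeq2 (adjusted p = 0.132).

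The promoters of 3 chaperone genes are shown because the core of the heat shock element, GAANNTTC, is in them. The motif was searched on both strands, and as it is its own reverse complement a hit counts for both. Sequences are RefSeq windows of the GRCh38.p14 build, from 250 bases before to 50 after the gene's start, written along the gene's strand with the motif in capitals. HSPA6 lies on the plus strand (chr1:161524290-161524589), HSPA1B on the plus strand (chr6:31827488-31827787) and CHORDC1 on the minus strand (chr11:90223000-90223299).
HSPA6: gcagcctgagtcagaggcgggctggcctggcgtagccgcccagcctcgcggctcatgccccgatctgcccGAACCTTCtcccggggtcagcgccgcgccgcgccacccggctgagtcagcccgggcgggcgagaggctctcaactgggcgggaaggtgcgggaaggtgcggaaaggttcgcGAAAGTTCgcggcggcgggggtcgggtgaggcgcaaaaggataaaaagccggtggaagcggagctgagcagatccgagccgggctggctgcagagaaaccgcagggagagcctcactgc
HSPA1B: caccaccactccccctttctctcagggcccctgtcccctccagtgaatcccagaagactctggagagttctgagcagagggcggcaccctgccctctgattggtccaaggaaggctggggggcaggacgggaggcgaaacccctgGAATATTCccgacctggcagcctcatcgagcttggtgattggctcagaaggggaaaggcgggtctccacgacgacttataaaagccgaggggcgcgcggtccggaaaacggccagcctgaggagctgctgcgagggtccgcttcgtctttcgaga
CHORDC1: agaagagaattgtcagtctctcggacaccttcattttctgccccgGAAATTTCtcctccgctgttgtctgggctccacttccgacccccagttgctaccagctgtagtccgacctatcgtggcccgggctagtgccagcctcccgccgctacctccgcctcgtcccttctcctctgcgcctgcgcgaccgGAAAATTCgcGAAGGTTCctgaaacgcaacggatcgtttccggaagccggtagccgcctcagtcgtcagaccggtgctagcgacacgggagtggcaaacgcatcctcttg
HSPA6 has 2 matches, at -180 and -69 from the start, HSPA1B has 1, at -105, and CHORDC1 has 3, at -205, -60 and -50. Among the promoters found in the table, the motif was in 5 of 12 of the HSP70 and HSP110 genes (41.7%). In the small heat shock and BAG list, with SERPINH1 counted, it was in 4 of 9 (44.4%). It was in 2 of 17 of the HSP90 group (11.8%), 2 of 35 of the J-domain genes (5.71%), 6.87% of all 27305 promoters and 4.65% of the promoters of genes tested. In genes called higher by 2-fold or more it was in 11 of 47 (23.4%), and in genes called lower by 2-fold or more in 11 of 66 (16.7%). A match is a description of letters and not a binding site.

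**Figure D2:**
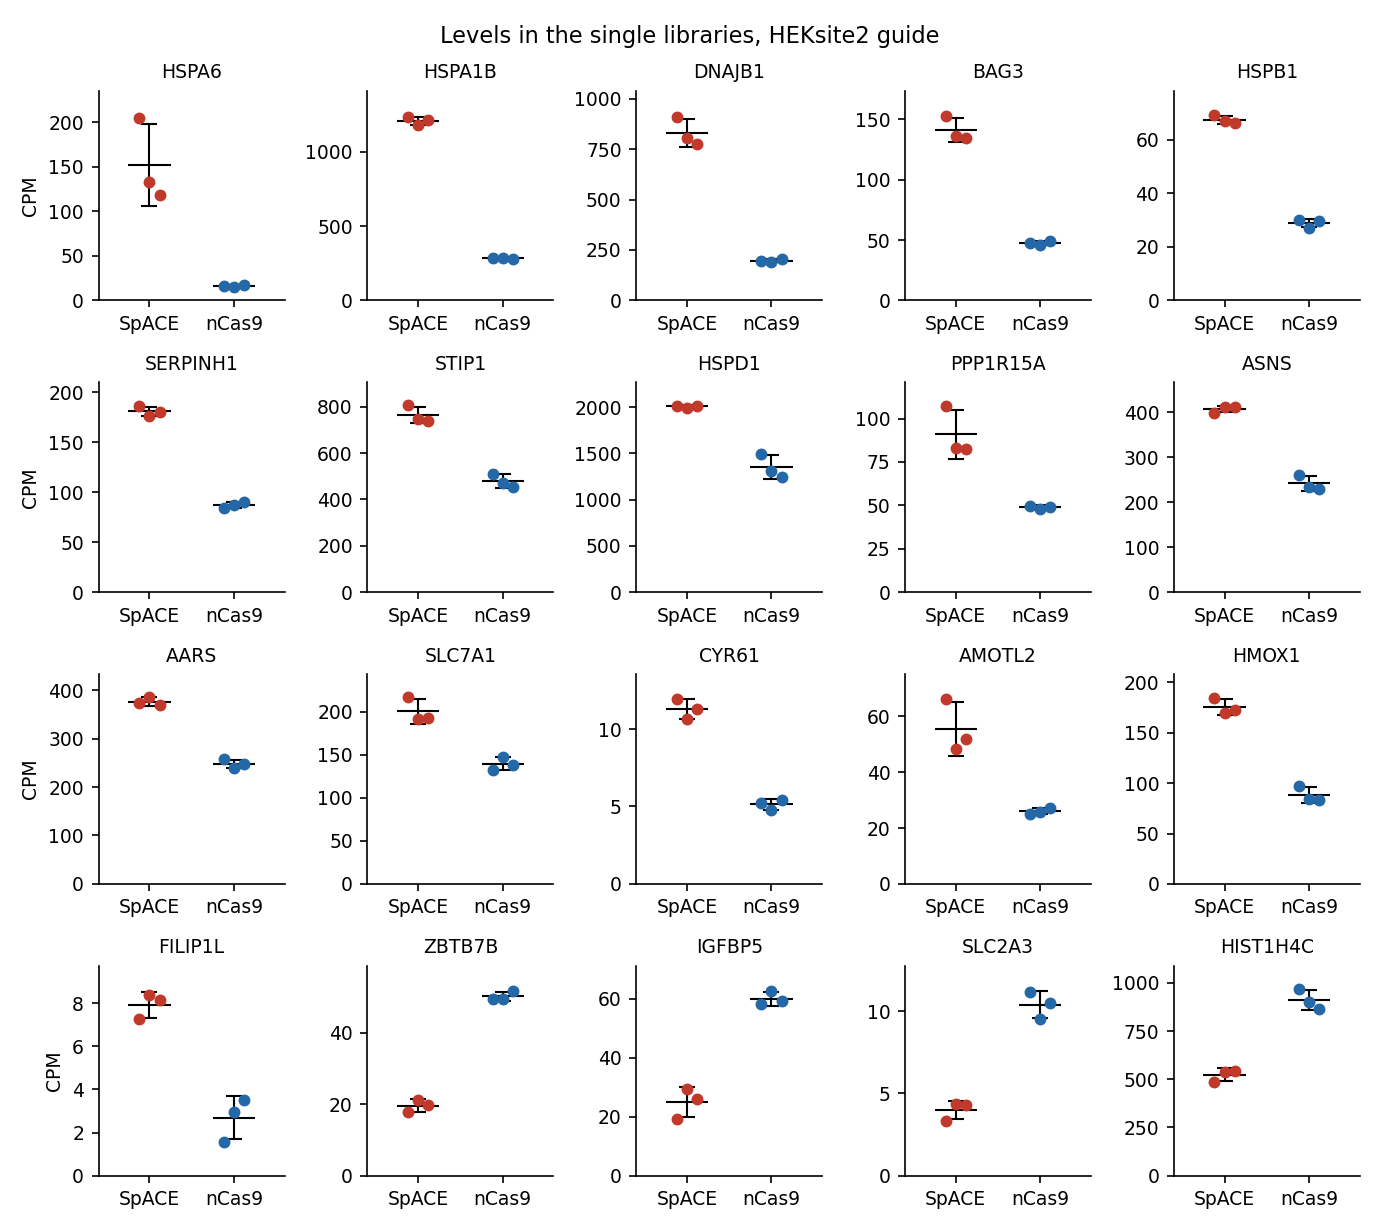
CPM (vertical, from 0) in each of the 3 SpACE and 3 nCas9 libraries with the HEKsite2 guide for 20 genes described in the text; points are libraries, the long bar is the mean and the whiskers are 1 SD. The groups do not overlap in any of the 20 panels, which the choice of genes fixed for those among the 15 largest rises or falls. The last 4 panels (ZBTB7B, IGFBP5, SLC2A3 and HIST1H4C) show genes lower in SpACE.

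Genes of the ATF4 pathway were higher as a group. Of 27 factors 17 were higher (63%) and 2 lower (7.41%), against 10.7% and 10.2% of all genes tested, with a median of 0.39. ATF3, a repressor and activator of the same family as ATF4, had 453, 396 and 381 CPM in SpACE, against 138, 131 and 145 CPM in nCas9. PPP1R15A (GADD34), which returns the phosphatase to eIF2alpha, had 107, 82.8 and 82.7 CPM in SpACE, against 49.8, 48.1 and 49.2 CPM in nCas9 (0.89; adjusted p = 5.03e-11). The first SpACE library stood above the other two for both genes, and for PPP1R15A every SpACE library lay above the nCas9 range. JDP2, a partner of ATF3, had 22.3, 18.7 and 17.9 CPM in SpACE, against 10.9, 11.2 and 12.6 CPM in nCas9 (0.76; adjusted p = 3.16e-06). GDF15, a secreted stress hormone, had 8.28, 7.92 and 10.4 CPM in SpACE, against 3.27, 5.47 and 6.94 CPM in nCas9 (0.76; adjusted p = 0.02), and NUPR1, a small stress-induced chromatin protein, 2.76, 1.63 and 2.6 CPM in SpACE, against 1.33, 0.982 and 1.29 CPM in nCas9 (0.93; adjusted p = 0.0366). Both had few reads. The adjusted p of GDF15 was 0.103 without the third SpACE library and 0.186 without the first nCas9 library, and that of NUPR1 was 0.0674 to 0.141 without any library but the second SpACE one, and 0.0756 with DESeq2. The 2 lower members were ATF4 itself (-0.26; adjusted p = 7.22e-04) and ATF5 (-0.58; adjusted p = 0.0324). DDIT3 (CHOP), the pathway's pro-apoptotic factor, had a log2 fold change of -0.046 (adjusted p = 0.746). ATF4, ATF5 and DDIT3 were named after their values were seen, and ATF5 lost its call without the third SpACE, the second nCas9 or the third nCas9 library (adjusted p 0.0621 to 0.197), and with DESeq2 (adjusted p = 0.0561).

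Enzymes, transporters and synthetases downstream of ATF4 were also higher. Of 17 genes for serine, asparagine, cysteine and proline synthesis 10 were higher (58.8%) and 2 lower (11.8%). Of 14 amino acid transporters 8 were higher (57.1%) and 1 lower (7.14%). Of 20 cytosolic aminoacyl-tRNA synthetases 9 were higher (45%) and 1 lower (5%). The shares over all genes tested were 10.7% and 10.2%. ASNS, asparagine synthetase, had 398, 411 and 412 CPM in SpACE, against 261, 234 and 229.6 CPM in nCas9 (0.75; adjusted p = 6.49e-12). PSAT1, of serine synthesis, had 371, 379 and 372 CPM in SpACE, against 288, 254 and 249 CPM in nCas9 (0.50; adjusted p = 1.63e-07). The cationic amino acid transporter SLC7A1 had 218, 192 and 193 CPM in SpACE, against 133, 148 and 139 CPM in nCas9 (0.52; adjusted p = 2.06e-06). In each of these genes the groups were apart. The alanyl-tRNA synthetase AARS had 374, 386 and 369 CPM in SpACE, against 257, 239.6 and 248 CPM in nCas9 (0.60; adjusted p = 3.66e-10). GARS, for glycine, rose by 0.55 (adjusted p = 2.32e-08) and MARS, for methionine, by 0.33 (adjusted p = 1.97e-05). With nCas9 of the RNF2 guide in place of nCas9 of the HEKsite2 guide, 4 transporters were called higher, against 11.5% of all genes.

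The C/EBP-ATF response element to which ATF4 binds was searched as TGATGNAA on both strands of the same promoter windows. The motif was in 6 of 13 aminoacyl-tRNA synthetase promoters (46.2%), 3 of 11 of the synthesis genes (27.3%), 3 of 12 of the transporters (25%) and 4 of 24 of the ATF4 factors (16.7%), against 3.67% of all 27305 promoters and 1.6% of the promoters of genes tested. Among all genes called higher it was in 2.68%, and among those called lower in 1.25%. At 2-fold or more it was in 2 of 47 genes higher (4.26%) and 1 of 66 lower (1.52%). Here too a match is not a binding site.

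The unfolded protein response of the endoplasmic reticulum did not move as a group, with a median of -0.08. Of its 30 members 4 were higher (13.3%) and 5 lower (16.7%), against 10.7% and 10.2% of all genes tested. XBP1, its central transcription factor, had 349, 324 and 325 CPM in SpACE, against 223, 208 and 207 CPM in nCas9 (0.65; adjusted p = 2.35e-09), and HERPUD1, of protein degradation there, rose by 0.43 (adjusted p = 2.68e-06). CALR (calreticulin) fell by 0.35 (adjusted p = 9.49e-06). The 5 lower members became 2 without the first nCas9 library.

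Genes of early transcriptional and mechanical responses were called higher more often than the 10.7% of all genes tested. Their lower shares were near or below the 10.2% of all genes. Of 31 immediate early genes 7 were higher (22.6%) and 3 lower (9.68%). FOSL2, an AP-1 subunit, had 15.4, 11.7 and 14 CPM in SpACE, against 8.25, 7.43 and 5.18 CPM in nCas9 (0.98; adjusted p = 3.20e-05), whereas JUNB, another, had 8.17, 8.57 and 7.12 CPM in SpACE, against 12.1, 11.6 and 13.1 CPM in nCas9 (-0.63; adjusted p = 0.00593). KLF4, a zinc finger factor, rose by 0.63 (adjusted p = 0.0038). Of 10 phosphatases of MAP kinases 3 were higher (30%) and 1 lower (10%). DUSP16, which acts on JNK and p38, had 189, 166 and 150.4 CPM in SpACE, against 101, 103 and 111 CPM in nCas9 (0.68; adjusted p = 7.31e-07). Of 23 YAP and TEAD targets 8 were higher (34.8%) and 1 lower (4.35%). CYR61, a matrix protein, had 12, 10.6 and 11.3 CPM in SpACE, against 5.21, 4.77 and 5.41 CPM in nCas9 (1.13; adjusted p = 3.76e-06), and AMOTL2, an angiomotin that binds YAP, 66.2, 48.4 and 51.7 CPM in SpACE, against 25, 25.8 and 27.3 CPM in nCas9 (1.09; adjusted p = 1.09e-08). Both had groups apart. ANKRD1, a muscle ankyrin repeat protein and YAP target, had 10.4, 7.59 and 6.78 CPM in SpACE, against 1.58, 0.561 and 1.76 CPM in nCas9. CTGF, a YAP target often read beside CYR61, had a log2 fold change of 0.65 (adjusted p = 0.101) and was named after its value was seen. With GFP as control CTGF was called higher (0.72; adjusted p = 0.037), as it was with nCas9 of the RNF2 guide (0.78; adjusted p = 0.0483).

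HMOX1, heme oxygenase, had 184, 169 and 173 CPM in SpACE, against 97.5, 84.1 and 83.2 CPM in nCas9 (0.99; adjusted p = 5.13e-11). The NRF2 list, which holds HMOX1, moved both ways, with a median of 0.0087. Of its 24 members 4 were higher (16.7%) and 5 lower (20.8%), against 10.7% and 10.2% of all genes tested. FTL, ferritin light chain, fell by 0.35 (adjusted p = 9.37e-05).

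Several of the 15 largest rises belong to none of these lists. INHBA, the subunit of activin A, had 1.61, 1.63 and 1.02 CPM in SpACE, against 0.121, 0.421 and 0.235 CPM in nCas9 (2.43, SE 0.456; adjusted p = 1.43e-04). RAPGEF3 (EPAC1), a cAMP-activated exchange factor for Rap, had 4.26, 3.58 and 4.07 CPM in SpACE, against 1.09, 1.26 and 1.06 CPM in nCas9 (1.80, SE 0.282; adjusted p = 1.00e-05). FILIP1L, a filamin-binding protein, had 7.25, 8.35 and 8.13 CPM in SpACE, against 1.58, 2.94 and 3.53 CPM in nCas9 (1.56, SE 0.211; adjusted p = 7.24e-07). All 3 genes were at low levels. GIPC2 had 2.99, 2.71 and 3.62 CPM in SpACE, against 0.728, 1.4 and 0.706 CPM in nCas9. TNN, a tenascin of the extracellular matrix, had 8.05, 6.51 and 5.08 CPM in SpACE, against 0.849, 1.82 and 1.76 CPM in nCas9, the first SpACE library being the highest. 

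The largest falls were in genes of modest abundance with different roles. ZBTB7B, a zinc finger repressor, had 17.8, 21.3 and 19.7 CPM in SpACE, against 49.2, 49.4 and 51.6 CPM in nCas9 (-1.35, SE 0.0906; adjusted p = 9.35e-15). IGFBP5, which binds insulin-like growth factors, had 19.3, 29.3 and 25.9 CPM in SpACE, against 58.1, 62.5 and 59.1 CPM in nCas9 (-1.27, SE 0.107; adjusted p = 1.06e-11). The nCas9 libraries of each gene were close together, and the first SpACE library was the lowest. SLC2A3 (GLUT3), a neuronal-type glucose transporter, had 3.34, 4.34 and 4.29 CPM in SpACE, against 11.2, 9.53 and 10.5 CPM in nCas9 (-1.38; adjusted p = 1.35e-07). GLI1, an effector and target of hedgehog signalling, had 2.65, 2.5 and 2.03 CPM in SpACE, against 6.91, 5.47 and 6.12 CPM in nCas9 (-1.37; adjusted p = 1.08e-05). CDKN1C (p57), an inhibitor of cyclin-dependent kinases, had 2.76, 1.41 and 2.71 CPM in SpACE, against 3.76, 6.03 and 6 CPM in nCas9 (-1.19; adjusted p = 3.12e-04). These 3 genes were at low levels. APOE, apolipoprotein E, and DLX4, a homeobox gene, fell by 1.30 and 1.27 (adjusted p = 0.00222 and 9.85e-04). ASIC3 and SCN4A, an acid-sensing and a voltage-gated sodium channel, fell by 1.24 and 1.20 (adjusted p = 0.0117 and 0.00914) at means of 1.28 and 1.12 CPM in SpACE, against 3.01 and 2.62 CPM in nCas9. ASIC3 lost its call without the second SpACE, the third SpACE or the third nCas9 library (adjusted p 0.0515 to 0.0786) and SCN4A without the second or the third nCas9 library (adjusted p 0.0558 and 0.0524). ZNF467, a zinc finger gene, had 2.76, 4.88 and 4.41 CPM in SpACE, against 16, 15.8 and 16.6 CPM in nCas9, and TMC8, a membrane protein of the endoplasmic reticulum, 10.2, 6.29 and 4.97 CPM in SpACE, against 28.3, 28 and 27.2 CPM in nCas9. EFNA3, an ephrin ligand, had 7.13, 6.51 and 8.81 CPM in SpACE, against 23, 24.5 and 22.9 CPM in nCas9. In all 3 the nCas9 libraries were close together.

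Replication-dependent histone genes, whose mRNAs end in a stem-loop in place of a poly(A) tail and peak in S phase, were lower. Of 46 tested members 25 were lower (54.3%) and 0 higher, against 10.2% and 10.7% of all genes tested. The median was -0.38, with 1 member above 0. HIST1H1D, a linker histone, had 88.2, 144 and 145 CPM in SpACE, against 224, 252 and 245 CPM in nCas9 (-0.93; adjusted p = 1.34e-06). HIST1H4C had 486, 539.9 and 545 CPM in SpACE, against 966, 902 and 864 CPM in nCas9 (-0.80; adjusted p = 4.36e-07). The groups were apart, with the first SpACE library the lowest for both genes. The library kit was for total RNA, and reads of near-identical histone copies can be assigned to any of them. With the RNF2 guide 3 of the 46 were lower and 0 higher, with a median of -0.05, against 6.68% of all genes lower there. The test of the difference between guides called 0 of the 46, with a median difference of -0.325.

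Other growth genes moved less. Of 46 G1/S and replication genes 3 were higher (6.52%) and 9 lower (19.6%), against 10.7% and 10.2% of all genes tested. CCND1, cyclin D1, had 26.7, 29.1 and 27.8 CPM in SpACE, against 41.1, 45.3 and 48 CPM in nCas9 (-0.68; adjusted p = 6.00e-06), and PCNA, the sliding clamp of replication, 234, 268 and 273 CPM in SpACE, against 373, 335 and 333 CPM in nCas9 (-0.42; adjusted p = 6.75e-05). ORC1, of origin recognition, rose by 0.46 (adjusted p = 3.18e-06). Of 40 G2 and mitosis genes 6 were higher (15%) and 1 lower (2.5%), and 3 were higher without the third SpACE library. Of 82 cytosolic ribosomal protein genes 10 were lower (12.2%) and 0 higher, and of 73 mitochondrial ribosomal ones 10 were lower (13.7%) and 1 higher. Both lower shares were near the 10.2% of all genes, but the higher shares of 0% and 1.37% were under the 10.7% of all genes. Most log2 fold changes were below 0, in 70 of the 82 and 54 of the 73, against 7396 of all 14613 genes tested. The medians were -0.11 and -0.08, and with the RNF2 guide 0.029 and -0.0022. Of 38 complex I subunits 11 were lower (28.9%) and 1 higher. Without the first nCas9 library the lower members of these lists numbered 2, 4 and 6, and without the first SpACE library 4, 4 and 7. Of 29 glycolysis and hypoxia genes 10 were lower and 5 higher, among them ENO2, an enolase (-0.46; adjusted p = 0.0105), and HK2, a hexokinase (0.37; adjusted p = 4.74e-04). Of 27 cholesterol synthesis genes 7 were lower and 1 higher. SC5D, a late enzyme of that route, fell by 0.52 (adjusted p = 3.47e-08). With nCas9 of the RNF2 guide in place of nCas9 of the HEKsite2 guide, the lower members numbered 4 for glycolysis and hypoxia, 2 for complex I and 4 for cholesterol synthesis, against 9.96% of all genes. ENO2 had an adjusted p of 0.0551 without the first SpACE library.

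Lists tied to the editing itself came next. Among 21 base excision repair genes 3 were higher (14.3%) and 3 lower (14.3%), against 10.7% and 10.2% of all genes. SMUG1, a uracil DNA glycosylase, fell by 0.48 (adjusted p = 7.22e-04). In mismatch repair 0 of 8 genes passed the test and among the cell's own deaminases 0 of 12, by edgeR's quasi-likelihood test. At an unadjusted p under 0.05 the counts were 2 and 2, and DESeq2 called 0 and 0. Of 26 p53 targets 3 were higher (11.5%) and 2 lower (7.69%). Of 21 interferon-stimulated genes 2 were higher (9.52%) and 1 lower (4.76%). Of 20 splicing factors and their kinases 3 were higher (15%) and 4 lower (20%), among them SRSF1 (-0.37; adjusted p = 1.34e-05). The host gene SNHG3 fell by 0.66 (adjusted p = 4.15e-06), and MALAT1, an abundant nuclear RNA, had 1259, 979 and 841 CPM in SpACE, against 617, 738 and 808 CPM in nCas9 (0.51; adjusted p = 0.00253, or 0.0638 without the first SpACE library). Of 444 zinc finger genes tested 52 were higher (11.7%) and 34 lower (7.66%), close to the shares over all genes.

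**Figure D3:**
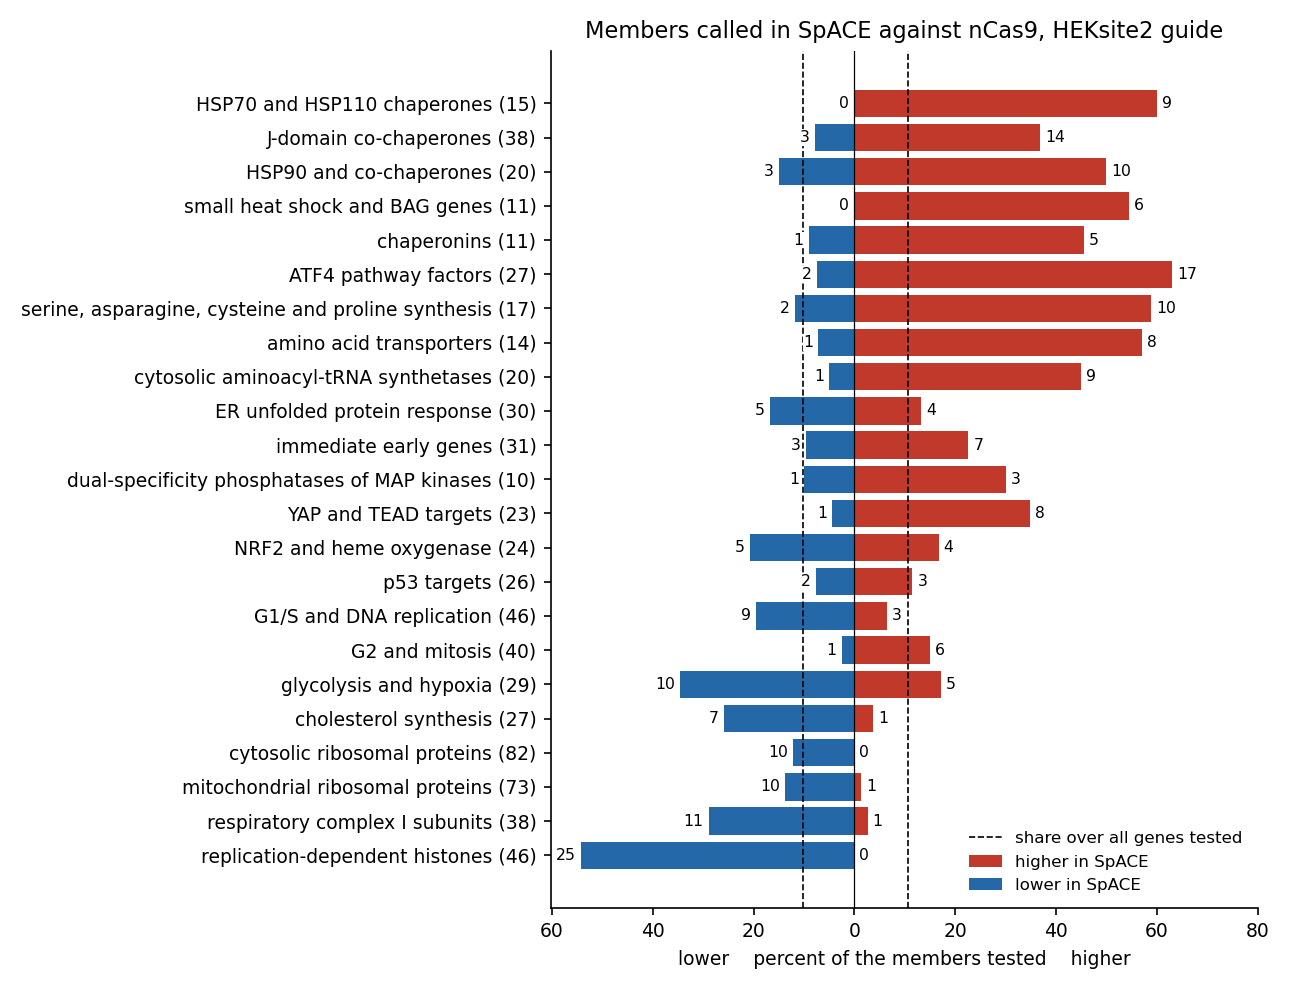
Share of the tested members of 23 gene lists that were called higher (red, to the right) or lower (blue, to the left) in SpACE against nCas9 with the HEKsite2 guide, in percent; the number tested is in brackets, the number called is at the end of each bar and the dashed lines are the shares over all genes tested, 10.7% and 10.2%. The chaperone and ATF4 lists reach far past the line on the right and the histones past the line on the left.

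CSH2, a placental lactogen gene, is among the most abundant transcripts in these libraries. It had 1602, 1306 and 1221 CPM in SpACE, against 2454, 2217 and 2413 CPM in nCas9, lower in SpACE (-0.78, SE 0.0946; adjusted p = 8.01e-08). Of 5 growth hormone cluster genes it was the one with enough counts to test. The labels do not say which sequences the plasmids carry, and a source of these reads outside the genome was not tested.

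Called genes differed in base composition and length. The median GC content of the annotated transcripts was 45.3% for the genes higher in SpACE, 52.0% for the genes lower and 48.2% for all genes tested. For genes changed by 1.5-fold or more it was 50.3% for those higher, above that of all genes, and 57.7% for those lower. In 5 equal groups of genes by GC content, from the lowest to the highest, the median log2 fold change was 0.0417, 0.0354, 0.009, -0.0334 and -0.0919. The same groups gave 0.0474, 0.0348, 0.0108, -0.027 and -0.1023 with the RNF2 guide. Median gene length was 70240.5 bases for the genes higher, 16360.5 bases for the genes lower and 32567 bases for all. At 1.5-fold or more it was 38466 bases for the genes higher and 10908 bases for the genes lower. On chromosome 19, 4.08% of 956 tested genes were higher and 18.2% lower. A smooth of each library on GC content was taken out for the 13834 genes with a GC value. Then 3008 genes were called, of which 2584 were among the 3063. A GC value was known for 1514 of the 1568 genes higher and 1440 of the 1495 lower. Of 92 genes described here, that correction ended the call of HSF1 and called DSN1 lower, and for the other 90 the direction and the call held. With GFP as control, from the lowest to the highest GC content, the 5 groups ran the other way, with medians of -0.0754, -0.0432, 0.005, 0.0521 and 0.0927, and this comparison uses the same SpACE libraries.

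SpACE with the RNF2 guide against nCas9 with that guide, in 6 other libraries, called 2150 genes (14.7%), 1174 higher (8.03%) and 976 lower (6.68%). Of the 1568 genes higher with HEKsite2, 1497 (95.5%) had the same sign with the RNF2 guide, and 727 (46.4% of these, and 61.9% of the 1174) were called higher there as well. Of the 1495 lower genes, 1415 (94.6%) had the same sign, and 592 (39.6% of these, and 60.7% of the 976) were called lower there. The gene called in opposite directions was HTR1D, a serotonin receptor named after its values were seen, with log2 fold changes of 0.90 with HEKsite2 (adjusted p = 0.0323) and -0.88 with the RNF2 guide. With HEKsite2 it lost its call without the first or the second library of either group (adjusted p 0.079 to 0.131) and with DESeq2 (adjusted p = 0.0979). The log2 fold changes of both guides had a Pearson correlation of 0.50 and a Spearman correlation of 0.55 over all 14613 genes tested, and of 0.80 and 0.73 over the 6612 genes with a mean log2 CPM of 5 or more, across genes, which are not independent replicates. With the RNF2 guide HSPA6 rose by 3.03, HSPA1B by 2.11, BAG3 by 1.25, ATF3 by 1.54, ASNS by 0.76 and HMOX1 by 1.16 on the log2 scale, and all 6 passed the test there. INHBA, GDF15, KLF4, DUSP8 and MALAT1, called higher with HEKsite2, had log2 fold changes of 0.68, 0.072, 0.0094, -0.15 and -0.12 with the RNF2 guide and did not pass the test there. DUSP8, a phosphatase of JNK and p38, had an adjusted p of 0.0726 with HEKsite2 without the first SpACE library. None of these 5 passed the test of the difference between guides.

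The difference between guides was itself called for 4 genes (0.0274%). SERPINH1 rose more with HEKsite2 (1.05) than with the RNF2 guide (0.52), a difference of 0.53 (SE 0.0892; adjusted p = 0.00461). Its mean was 180.9 CPM in SpACE and 87.4 CPM in nCas9 with HEKsite2, and 154 CPM in SpACE and 107.3 CPM in nCas9 with the RNF2 guide. DSN1, a kinetochore protein, had a difference of -0.64 (adjusted p = 3.08e-05) and AKAP8L, a nuclear anchoring protein, one of -0.45 (adjusted p = 0.00501). Neither passed the test with HEKsite2, although with library differences by GC content taken out DSN1 was called lower there (-0.17; adjusted p = 0.0176). RNF2, a Polycomb E3 ligase and the gene named by the second guide, averaged 71.9 ± 3.12 CPM in SpACE and 64.1 ± 3.64 CPM in nCas9 with HEKsite2 (adjusted p = 0.122), and 62.4 ± 1.98 CPM in SpACE and 36.6 ± 4.76 CPM in nCas9 with its own guide (SD, n = 3 each). The difference was -0.60 (adjusted p = 0.0122).

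**Figure D4:**
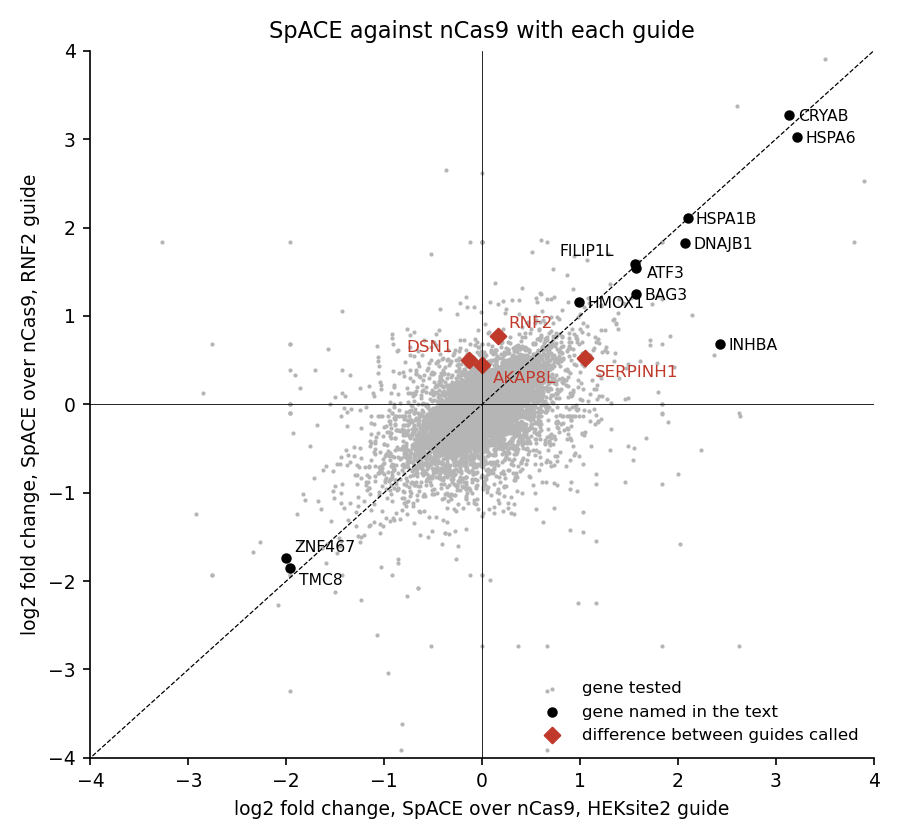
Log2 fold change of SpACE over nCas9 with the HEKsite2 guide (horizontal) and with the RNF2 guide (vertical), 1 grey point per gene tested, black for genes named in the text and red diamonds for the 4 genes whose difference between guides was called; the dashed line marks equal values and 3 genes lie outside the axes. Most named genes are close to the line, INHBA and SERPINH1 below it and RNF2, DSN1 and AKAP8L above it.

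SpACE was also set directly against the other editors with the HEKsite2 guide. Against Target-AID 2706 genes were called (18.5%), 1199 higher in SpACE (8.21%) and 1507 lower (10.3%). Against ABEmax 988 were called (6.76%), 438 higher (3%) and 550 lower (3.76%). There were 498 without the second SpACE library, 428 without the third SpACE library, 618 without the first ABEmax library and 583 without the third ABEmax library. Against miniABEmax-V82G 108 were called (0.739%), 64 higher (0.438%) and 44 lower (0.301%). There were 51 without the second SpACE library, 27 without the third SpACE library, and 35, 14 and 39 without the first, the second and the third miniABEmax-V82G library.

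Heat shock genes differed between SpACE and the other editors gene by gene. HSPA6 averaged 152 CPM in SpACE, against 1503 CPM in Target-AID (-3.30; adjusted p = 4.49e-26), 237 CPM in ABEmax (-0.64; adjusted p = 8.40e-05) and 162 CPM in miniABEmax-V82G (-0.09; adjusted p = 0.758). DNAJB1 averaged 832 CPM in SpACE, against 2562 CPM in Target-AID (-1.62; adjusted p = 1.63e-20), 858 CPM in ABEmax (adjusted p = 0.801) and 734 CPM in miniABEmax-V82G (adjusted p = 0.252). For DNAJB1 the 95% interval of the log2 difference, not adjusted over genes, was -0.20 to 0.11 against ABEmax and 0.021 to 0.34 against miniABEmax-V82G. Of 15 HSP70 and HSP110 genes 1 was higher and 6 lower in SpACE than in Target-AID, 1 higher and 2 lower than in ABEmax, and 1 higher and 1 lower than in miniABEmax-V82G. In the list of 11 small heat shock and BAG genes with SERPINH1, 3 were higher and 3 lower in SpACE than in Target-AID. There were 1 higher and 5 lower than in ABEmax, and 1 higher and 0 lower than in miniABEmax-V82G. Of 20 genes of HSP90 and its co-chaperones 4 were higher and 0 lower than in Target-AID, 1 higher and 2 lower than in ABEmax, and 2 higher and 0 lower than in miniABEmax-V82G. Of 38 J-domain genes 4 were higher and 6 lower than in Target-AID, 2 higher and 2 lower than in ABEmax, and 1 higher and 0 lower than in miniABEmax-V82G. Over all genes tested the higher and lower shares were 8.21% and 10.3% against Target-AID and 3% and 3.76% against ABEmax. Against miniABEmax-V82G they were 0.438% and 0.301%. The J-domain counts against Target-AID and ABEmax were not far above these shares. HMOX1 in SpACE averaged 175 CPM, against 112 CPM in Target-AID (0.64; adjusted p = 3.11e-07), 156 CPM in ABEmax (0.17; adjusted p = 0.252) and 114 CPM in miniABEmax-V82G (0.62; adjusted p = 7.64e-05). ASNS was higher in SpACE than in miniABEmax-V82G (0.31; adjusted p = 0.00965) and had a log2 difference of 0.16 against ABEmax (adjusted p = 0.105). Against ABEmax, 2 of 27 ATF4 pathway factors were higher in SpACE and 7 lower, 0 of 17 synthesis genes were higher and 5 lower, and 0 of 14 amino acid transporters were higher and 6 lower. FAM129A, a stress-induced regulator of translation, had 23.9, 21.3 and 22.3 CPM in SpACE, against 13.8, 17.2 and 14.1 CPM in miniABEmax-V82G (0.58; adjusted p = 0.0219).

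At 8-fold or more, SpACE had 3 genes higher and 133 lower than Target-AID, 0 higher and 27 lower than ABEmax, and 0 either way than miniABEmax-V82G, by fitted folds that depend on the prior count for genes near 0 in a group. CSH2 had 1602, 1306 and 1221 CPM in SpACE, against 0.206, 0.194 and 0.124 CPM in Target-AID, a total of 5 counts there. HBB and HBD, adult globin genes, had 4 and 3 counts over the SpACE libraries and 0 over the nCas9 libraries. In Target-AID HBB had 5019, 4218 and 4687 CPM and HBD 5714, 4814 and 4974 CPM. NRP2, a semaphorin co-receptor, had 12.1, 14 and 15.8 CPM in SpACE, against 574, 517 and 518 CPM in ABEmax (-5.26; adjusted p = 7.91e-28), and did not pass the test between SpACE and nCas9 (adjusted p = 0.995). TNN was higher in SpACE than in Target-AID (2.19; adjusted p = 3.39e-08) and ABEmax (1.22; adjusted p = 0.00126).

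**Figure D5:**
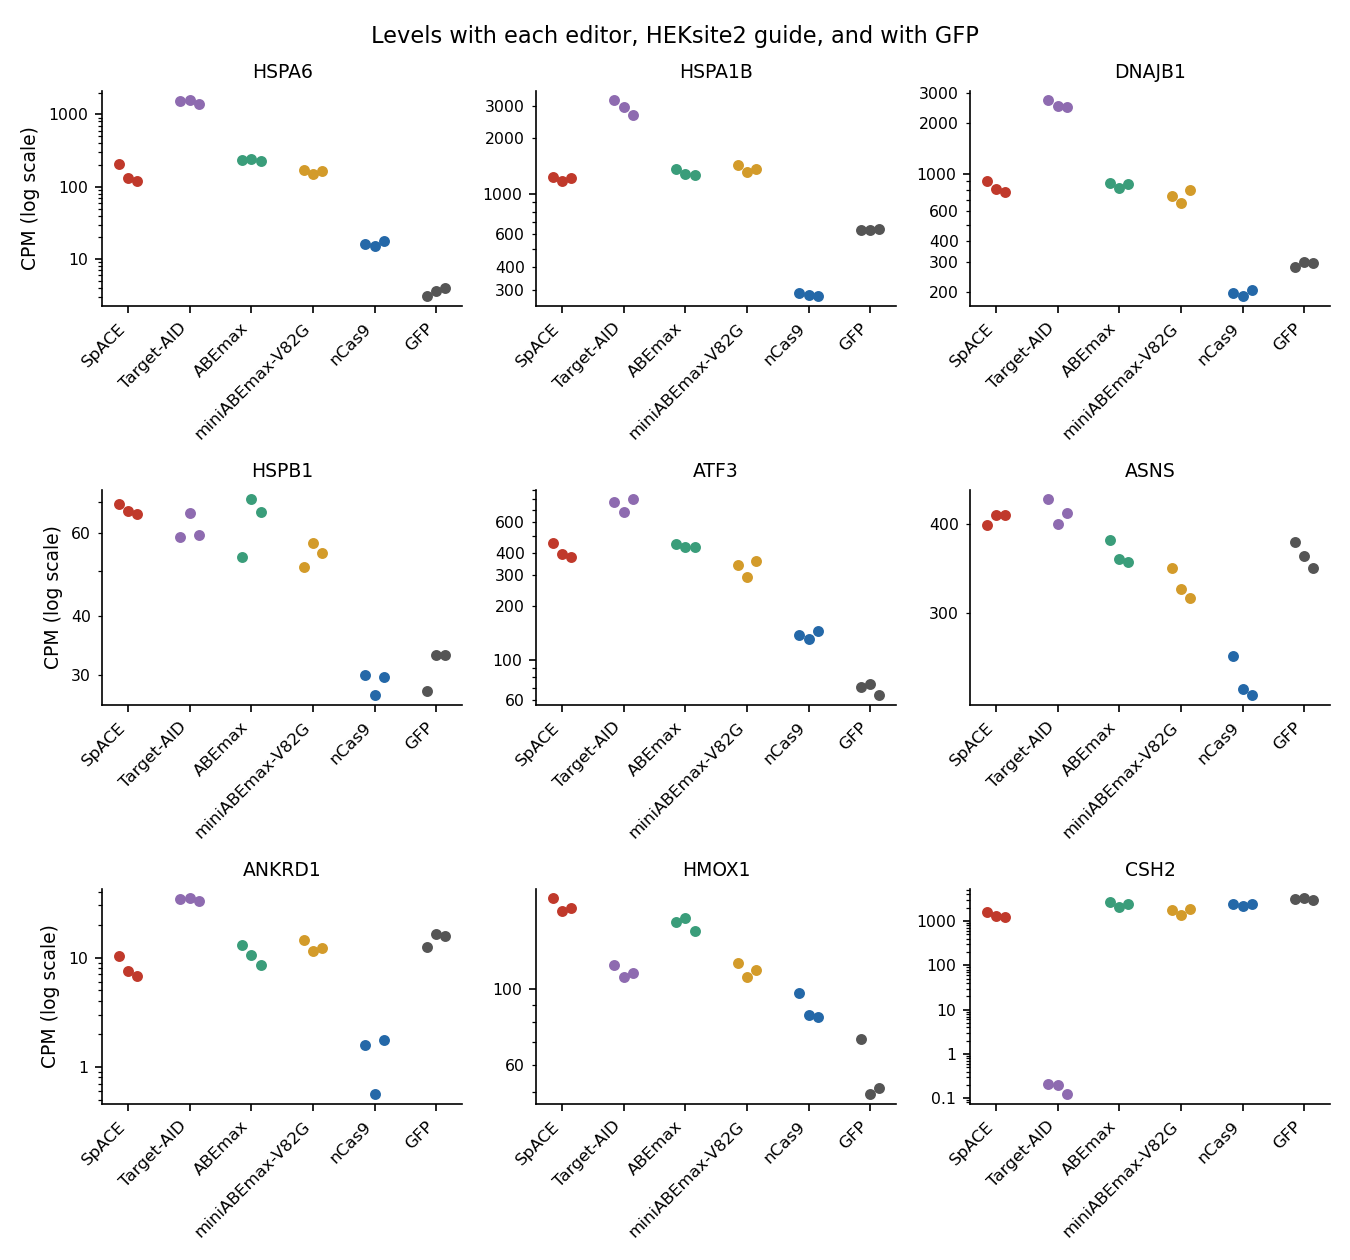
CPM on a log scale (vertical) in the 3 libraries of SpACE, Target-AID, ABEmax, miniABEmax-V82G and nCas9 with the HEKsite2 guide and of GFP without a guide, for 9 genes. For HSPA6, HSPB1, ATF3 and HMOX1 the 12 editor libraries lie above all nCas9 and GFP libraries, and for HSPA1B, DNAJB1, ASNS and ANKRD1 the nCas9 libraries are the lowest.

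Levels in GFP cells, which had no guide, stand beside those of both groups for some of these genes. HSPA1B averaged 1208 CPM in SpACE, 282 CPM in nCas9 and 636 CPM in GFP, so nCas9 was the lowest. ASNS averaged 407 CPM in SpACE, 242 CPM in nCas9 and 361 CPM in GFP, and SpACE exceeded GFP by 0.17 (adjusted p = 0.0235). ANKRD1 averaged 8.24 CPM in SpACE, 1.3 CPM in nCas9 and 14.9 CPM in GFP, so that SpACE was above nCas9 and below GFP (-0.85; adjusted p = 1.19e-05). EFNA3 and ZNF467 were at 7.48 and 4.02 CPM in SpACE, at 23.5 and 16.1 CPM in nCas9 and at 9.72 and 2.5 CPM in GFP. In these 2 genes nCas9 was the group that stood high. HSPA6, ATF3 and BAG3 were higher in SpACE than in GFP by 5.41, 2.57 and 1.78 on the log2 scale. Of the 15 largest rises over nCas9, 14 were also called higher than in GFP and 1 lower. Of the 15 largest falls, 4 were also called lower than in GFP and 2 higher. Against GFP, SpACE had 5350 genes called (36.6%; 18.5% higher and 18.2% lower). Both comparisons use the same SpACE libraries.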

How the data were processed

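RNA sequencing was done on 33 libraries in 11 groups of 3, and the 6 with SpACE or nCas9 and the HEKsite2 guide are the main subject. The authors deposited raw read counts per gene symbol. The submitters' processing notes name STAR, GATK (3.8.1), Picard (2.7) and GRCh38 (hg38), with no roles. Which counter, annotation and strand setting made the counts is not given in the sources used here, so overlapping genes, near-identical copies and antisense partners are uncertain. The members and lists were chosen with earlier results of these data known.

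Of 26475 genes, the 14613 kept by filterByExpr were scaled by TMM and fitted with 1 mean per group over all libraries (22 residual degrees of freedom). Contrasts used edgeR's two-sided quasi-likelihood test (version 4.0.16, R 4.3.3), with Benjamini-Hochberg adjustment over every gene tested; called means adjusted p under 0.05. SEs come from that fit, and CPM uses TMM-scaled totals. The fit was tested on simulated data.

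Named genes were the 15 largest rises and 15 largest falls among called genes with mean log2 CPM of at least 1 and groups that do not overlap, up to 5 called members per list, and 5 each way in the other contrasts; exceptions are stated where they occur, and a few results are not reported here. Replicates of a group differed beyond sampling noise. GENCODE 29 gave positions, GC content and lengths for 13834 of the tested symbols, and RefSeq promoters (GRCh38.p14) matched 11452. The alternatives tried were RLE scaling, no low-count filter, DESeq2 (1.42.0), a block on replicate number, a fit of the compared groups alone, GFP or the other nCas9 group as control, a GC offset, and each library left out in turn.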

Additional observations from a re-analysis of the deposited data

Results flagged for a closer look

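The effect of SpACE over nCas9 differed between the HEKsite2 and RNF2 guides for 4 genes by a test of the difference itself (edgeR's quasi-likelihood test of the interaction, adjusted over all genes tested). The log2 fold change with HEKsite2 minus that with the RNF2 guide was 0.53 for SERPINH1, a collagen chaperone, -0.64 for DSN1, a kinetochore gene, -0.60 for RNF2 and -0.45 for AKAP8L, a nuclear anchoring gene. For DSN1 the mean was 80.3 CPM in SpACE and 88.3 CPM in nCas9 with HEKsite2, and 75.6 CPM in SpACE and 53.4 CPM in nCas9 with the RNF2 guide. For AKAP8L it was 103.6 CPM in SpACE and 103.7 CPM in nCas9 with HEKsite2, and 92.4 CPM in SpACE and 67.7 CPM in nCas9 with the RNF2 guide. For RNF2, DSN1 and AKAP8L the nCas9 libraries with the RNF2 guide had the lowest mean of the 4 groups.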

How the results depend on the processing

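The 3063 genes called between SpACE and nCas9 became 2563 with DESeq2. RLE scaling, no filter, a fit of the compared groups alone, the GC offset and the replicate block gave 2837 to 3272. The GC offset was chosen after seeing the data and covers the 13834 genes with a GC value. Leaving out 1 library gave 2151 to 2665, with 993 to 1298 lower genes, the fewest without the first nCas9 library. With GFP as control 5350 genes were called, 2697 higher and 2653 lower. Of the 3063, 1595 were called with that control, 1271 of them with the same sign. Replicate numbers showed little sign of pairing SpACE and nCas9 with HEKsite2. Same-numbered libraries there had correlations of 0.0025, 0.091 and -0.0074 in their deviations, and the block gave 3272 calls. With the RNF2 guide these correlations were 0.26, 0.020 and 0.16. SpACE with HEKsite2 gave 0.23, 0.0092 and -0.064 with Target-AID, and 0.22, 0.049 and 0.083 with ABEmax. With miniABEmax-V82G it gave 0.29, 0.099 and -0.059, but replicate 3 of SpACE and replicate 2 of that editor also gave 0.29. Pairing in these other contrasts was not settled. The difference between guides (4 genes) gave 44 with no filter, 10 with DESeq2, 7 with the block and 3 to 6 with a library left out. SpACE against miniABEmax-V82G (108) gave 247 with no filter, 202 with the block, 221 with the compared groups alone and 14 to 86 with a library left out, and against ABEmax (988) 428 to 1112. Of 92 genes in the text, with GFP as control the log2 fold change turned to 0.54 for AKAP8L, -0.85 for ANKRD1, 0.37 for ATF5, 0.64 for DDIT3, 0.17 for DSN1, 0.54 for ENO2, 0.24 for GLI1, -0.037 for HK2, -0.19 for HSPA8, 0.36 for JUNB, 0.11 for KRT8, 1.06 for TMC8 and 0.68 for ZNF467. With nCas9 of the RNF2 guide as control it turned to 0.61 for AKAP8L, 0.59 for DSN1, -0.083 for DUSP8 and -0.00038 for HTR1D. With GFP as control 14 others kept their sign but lost their call. They were AARS, APOE, ASIC3, CCND1, CCT6B, CDC37, CDKN1C, DLX4, FTL, PCNA, SCN4A, SLC2A3, SNHG3 and SRSF1. With nCas9 of the RNF2 guide 10 did so. They were APOE, ASIC3, CCT6B, ENO2, JUNB, KLF4, MALAT1, NUPR1, ORC1 and SMUG1. CTGF kept its sign and gained a call with either control, and RNF2 did so with nCas9 of the RNF2 guide (0.97). The cause was not tested. Of the 92, 4 lost their call with DESeq2 and 4 to 7 with a library left out.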
